A study of Mus musculus with 20 samples.

Results

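The genes described here are 7 mouse genes of glutamate signalling: the AMPA receptor subunits Gria1, Gria2, Gria3 and Gria4, the NMDA receptor subunit Grin2c, the kainate receptor subunit Grik5, and Neto2, an auxiliary protein of kainate receptors. They were found by gene name in the right atrial table and by Ensembl identifier in the left atrial table, among 33446 genes present in both. The set was selected on measured values of these libraries, namely the mutant against control difference in which Gria3, Grin2c and Neto2 were higher. For these 7 genes the difference between mutant and control is therefore a description, and no p-value is given for it.

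Ionotropic glutamate receptors are ligand-gated cation channels assembled from 4 subunits, and in brain they carry most of the fast excitatory transmission between neurons. AMPA receptors are built from the products of Gria1 to Gria4. The edited Gria2 subunit makes an AMPA receptor nearly impermeable to calcium, so receptors without it admit calcium. NMDA receptors need the Grin1 subunit together with a Grin2 or Grin3 subunit. Kainate receptors need a subunit encoded by Grik1, Grik2 or Grik3, and the product of Grik5 joins these but forms no channel alone. Neto2 binds kainate receptors and slows the decay of their current.

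The libraries were made from RNA of whole right or left atria, taken from adult females of 8 to 12 weeks. Each atrium gave 5 control and 5 mutant libraries, 20 in all. Controls were wild type, and mutants were heterozygous for a missense allele of the transcription factor gene Tbx5, Tbx5 G125R, that was made with CRISPR-Cas9 and is carried in the germline. The mutants therefore keep a wild-type copy of Tbx5. The right atrial samples also held the sinoatrial node, per the study's description. The question was how the missense allele alters atrial transcription. In these bulk samples, fewer cells of a type and less RNA per cell cannot be told apart, and nothing in the labels says which libraries came from the same animal.

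The right atrial libraries held 17479665 to 26805205 reads and the left atrial ones 19136299 to 24841848. Values are normalized counts, scaled separately in each atrium, so levels are compared within an atrium only. Mitochondrial rRNA took 7.28% to 15.7% of reads in right atrial and 19.5% to 46.7% in left atrial libraries. The dependence of a library's values on the GC content of transcripts spanned -0.04 to 0.11 on the log2 scale per 10 percentage points of GC in the right atrium and -0.30 to 0.70 in the left, where mutant library 1 stood apart with 0.70 and mutant library 5 had 0.41. A genotype difference was not detected for either property in the left atrium. Mitochondrial rRNA took 32.3% ± 8.81 (SD, n = 5) of reads in controls and 30.8% ± 8.20 in mutants (two-sided exact permutation test, p = 0.817), and the GC trend was -0.16 ± 0.13 and 0.16 ± 0.38 (same exact test, p = 0.119). More genes had a read in mutant than in control right atria, 20149 ± 290 against 19437 ± 455 (same exact test, p = 0.0317), and the part of this in the differences below was not tested. Tbx5 itself had 6113 ± 1088 normalized counts in control and 6153 ± 584 in mutant right atria, and 1459 ± 329 and 1520 ± 189 in left atria. A missense allele need not alter this level, so it is no check of the labels. All 11 cardiomyocyte marker genes, among them Myh6, Tnnt2 and Myl7, were measured in each atrium and none passed the test between genotypes. In the right atrium 6 of the 11 had a positive log2 fold change, with a median of 0.02. All 11 were positive in the left atrium, with a median of 0.35. Left atrial Tnnt2 was higher in every mutant library than in every control library (log2 fold change 0.70). The part of this in the differences below was not tested. Of 14 neuronal markers, Th, Chat and Slc18a3 were at 0 in every left atrial library. Dbh, Stmn2, Elavl4 and Uchl1 averaged at least 10 normalized counts in both atria. Slc18a3 was not analysed in the right atrium.

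In the right atrium Gria1, Gria3, Grin2c and Neto2 were higher in every mutant library than in every control library, Gria4 and Grik5 overlapped between genotypes, and Gria2 was close to absent. In the left atrium Grin2c and Neto2 were again higher without overlap, Gria3 was higher with a single mutant library inside the control range, and the other subunits were scarce. A gene was tested if its mean over the 10 libraries of an atrium was at least 10 normalized counts, and called if its adjusted p was under 0.05 (limma on log2 of the normalized count + 1, Benjamini-Hochberg adjustment over all tested genes). Of the 7 genes, 6 were tested in the right atrium and 4 of them were called higher and 0 lower. Over all 14288 genes tested there, 6.23% were called, 3.09% higher and 3.14% lower, and 3.53% had every mutant library above every control library and 3.83% every mutant library below. In the left atrium 5 were tested and 3 were called higher and 0 lower, against 1.2% of 13192 genes called, 0.758% higher and 0.44% lower, with 2.02% above and 1.46% below without overlap. The median log2 fold change was 1.09 over the 6 genes in the right atrium and 1.16 over the 5 in the left, against -0.01 over all genes tested in each. These counts and medians follow from the choice of the genes and are not read as a result.

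**Figure D1:**
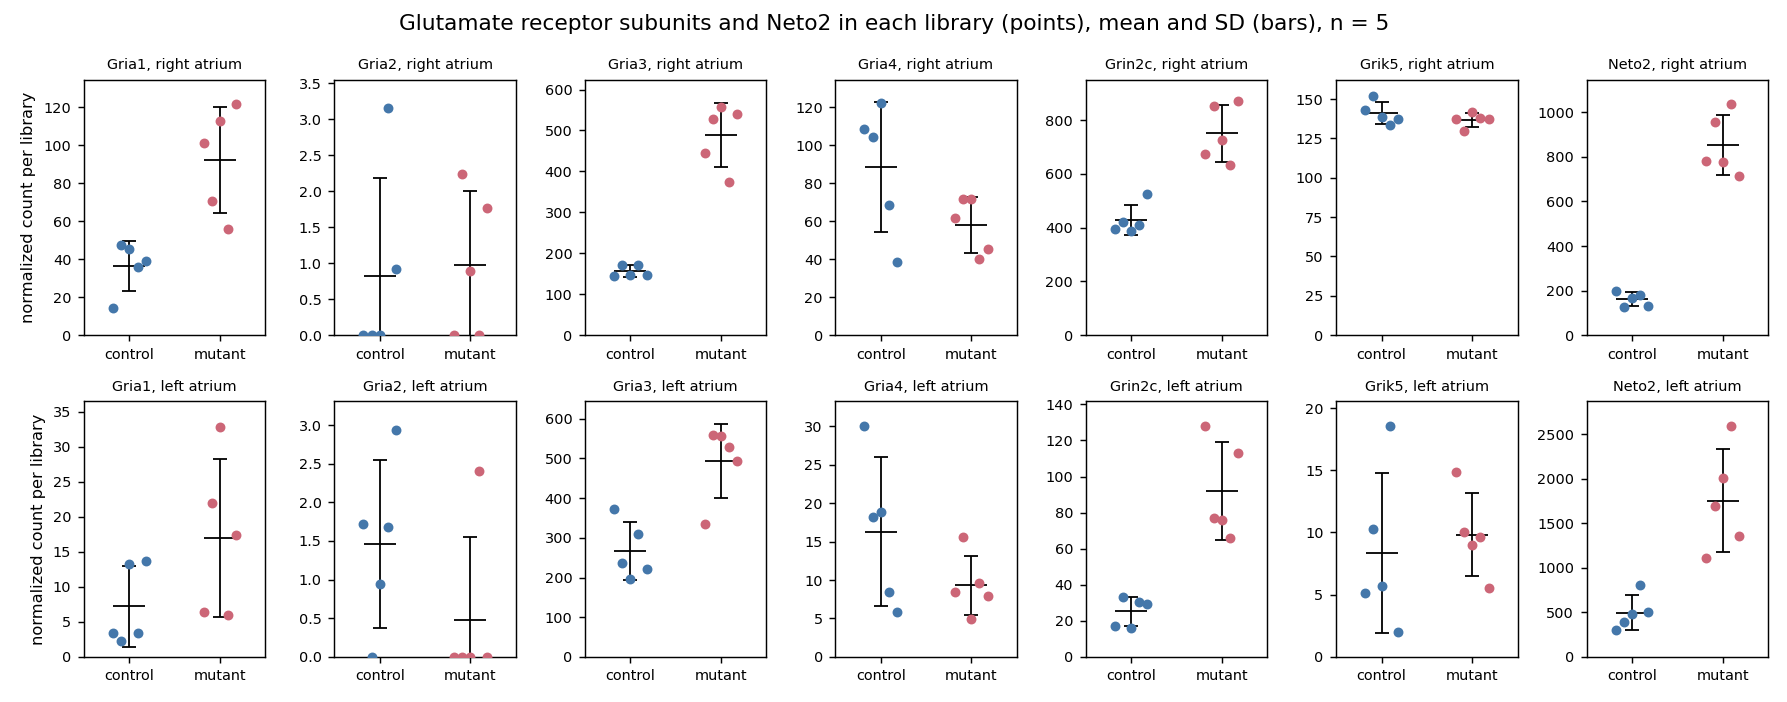
Normalized counts (y axes, each from 0, scaled separately for every panel) of the 7 genes in 5 control and 5 mutant libraries of the right atrium (top) and the left atrium (bottom). Points are libraries, horizontal bars are means and vertical bars are SD. Neto2, Grin2c, Gria3 and Gria1 separate by genotype in the right atrium, and Neto2 and Grin2c in the left.

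The 5 genes with an entry in the RefSeq promoter table (build GRCm38.p6) had 6 windows of 300 bases, each from 250 bases before to 50 bases after a transcription start. Windows of Grin2c, of the longer Neto2 transcript and of Grik5 are shown because the first pair belongs to genes that were higher in both atria and the last to a gene that did not pass the test. Each is printed 5′ to 3′ on the gene's own strand, and capitals mark every copy of the GC box GGGCGG.
Grin2c, chr11:115267194-115267493, minus strand: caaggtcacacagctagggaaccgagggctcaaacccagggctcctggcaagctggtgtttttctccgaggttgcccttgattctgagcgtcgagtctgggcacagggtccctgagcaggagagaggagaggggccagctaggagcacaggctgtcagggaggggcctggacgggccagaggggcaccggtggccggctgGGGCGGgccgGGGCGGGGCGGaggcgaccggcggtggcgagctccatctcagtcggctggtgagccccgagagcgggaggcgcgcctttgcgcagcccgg
Neto2, chr8:85700875-85701174, minus strand: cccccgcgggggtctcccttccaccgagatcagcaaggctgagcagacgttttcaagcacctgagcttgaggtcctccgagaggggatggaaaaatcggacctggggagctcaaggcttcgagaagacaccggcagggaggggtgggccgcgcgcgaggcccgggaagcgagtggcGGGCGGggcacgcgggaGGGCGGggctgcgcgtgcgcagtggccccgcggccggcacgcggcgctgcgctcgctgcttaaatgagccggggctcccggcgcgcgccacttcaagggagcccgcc
Grik5, chr7:25072320-25072619, minus strand: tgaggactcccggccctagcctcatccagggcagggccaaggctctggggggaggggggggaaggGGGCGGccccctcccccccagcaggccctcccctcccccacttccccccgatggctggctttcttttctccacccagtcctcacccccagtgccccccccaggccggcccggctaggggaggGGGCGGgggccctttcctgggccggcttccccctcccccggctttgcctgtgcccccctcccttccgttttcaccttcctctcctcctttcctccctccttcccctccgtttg
Both strands were searched for the T-box core AGGTGT and for GGGCGG, the core of the site bound by SP and KLF factors. AGGTGT was in none of the 6 windows and in 13.74% of all 32851 promoter windows of the table. GGGCGG was in 35.66% of them. Grin2c held 3 copies, whose first bases lie -50, -40 and -35 bases from the start, of which the last pair share a base. Neto2 held 2, at -74 and -57, and Grik5 held 2, at -185 and -63. The windows of Gria2, Gria4 and the second Neto2 start held 0. The GC content was 70% in the Grin2c window and 72% in both other windows shown, against a median of 52.67% over the table. The motif was thus present in genes that were higher and in 1 whose values overlapped, and these letters are a description of the windows alone.

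Gria3, an AMPA receptor subunit on the X chromosome (ENSMUSG00000001986, chrX:41400854-41678601, mm10, plus strand), was the most abundant AMPA subunit per kb of exon in mutant right atria. Control right atrial libraries 1 to 5 had 143.85, 172.16, 146.51, 171.75 and 145.72 normalized counts of Gria3. Mutant right atrial libraries 1 to 5 had 446.18, 527.70, 558.54, 373.07 and 541.40. The control libraries lay close together and the lowest mutant library was far above the highest control. The means were 156 ± 14.6 and 489 ± 78.0 (SD, n = 5), a log2 fold change of 1.63 ± 0.12 (SE).

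Left atrial Gria3 had 372.36, 235.87, 195.77, 308.40 and 220.61 normalized counts in control libraries 1 to 5. In mutant libraries 1 to 5 it had 335.18, 558.38, 557.59, 528.74 and 492.56. The overlap came from 2 libraries: control 1 was the highest control and mutant 1 the lowest mutant. Mutant 1 is also the library with the GC trend that stood apart. Their means were 267 ± 72.5 and 494 ± 93.0, and the log2 fold change was 0.90 ± 0.20. The call held in only 3 of the 10 fits that left out a library, those without control 1, mutant 1 or mutant 4, and was lost with the GC trend as a covariate (1.03). Over the fits without a library the log2 fold change ranged from 0.80 to 1.04. Leaving out control 1 gave 1.03 and leaving out mutant 1 gave 1.04.

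Gria1, the AMPA subunit best known from hippocampal plasticity (ENSMUSG00000020524, chr11:57011387-57330244, plus strand), was scarce but higher in mutant right atria. Its control values there were 14.29, 47.62, 45.47, 35.83 and 38.74 normalized counts in libraries 1 to 5. Its mutant values were 101.09, 70.58, 112.42, 55.92 and 121.39. The ranges were separated by 8.30 normalized counts, between mutant 4 and control 2, and control 1 lay well under the other controls. The means were 36.4 ± 13.3 and 92.3 ± 27.9, a log2 fold change of 1.37 ± 0.31. Without control 1 it was 1.07. The gene was not called when mutant 3 (1.28) or mutant 5 (1.25) was left out, or in a single model of both atria (1.37). Left atrial Gria1 had 2.28 to 13.7 normalized counts in controls, with a median of 3.44, and 6.01 to 32.9 in mutants, with a median of 17.4. These ranges overlapped, and the log2 fold change of 1.16 ± 0.56 was not called. It rested on 36 reads over the 5 control libraries and 93 over the 5 mutant libraries.

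Gria4, the remaining AMPA subunit measured above the floor (ENSMUSG00000025892, chr9:4417896-4796234, minus strand), was lower on average in mutants of both atria but overlapped between genotypes in each. Its control right atrial values were 108.60, 104.39, 122.51, 68.49 and 38.74 normalized counts. Its mutant values were 61.58, 71.70, 71.70, 40.19 and 45.19. Control 5 was the lowest of all 10 libraries, and control 1, 2 and 3 were above every mutant. The means were 88.5 ± 34.2 and 58.1 ± 14.7, and the log2 fold change of -0.53 ± 0.29 was not called. Within genotypes, Gria4 moved against the GC trend of the library (r = -0.89 over the deviations of 10 libraries from their group means). With that trend as a covariate the log2 fold change was -0.68 and the gene was called lower. Gria4 also moved against the share of mitochondrial rRNA (r = -0.76 over the same deviations). With that share as a covariate the log2 fold change was -0.34 and the gene was not called. These covariates thus moved the estimate in opposite directions. Gria4 was also called lower without control 5 (-0.79), and in none of the other alternatives run. Left atrial Gria4 averaged 16.3 ± 9.64 normalized counts over controls and 9.31 ± 3.88 over mutants, and its log2 fold change of -0.62 was not called.

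Gria2, the subunit whose edited form blocks calcium (ENSMUSG00000033981, chr3:80681450-80802835, minus strand), was close to absent. It had 0 to 3 reads in each of the 20 libraries, 4 over the control and 5 over the mutant right atria, and 7 and 2 over the left atria. It was tested in neither atrium, and a difference in Gria2 was not detectable at this depth.

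Since the subunits assemble together, their make-up was computed per kb of exon. Gria3 took 35.5% to 54.0% of the summed AMPA subunit signal in control right atria and 63.1% to 70.8% in mutant right atria, without overlap. Gria4 took 22.4% to 50.4% in controls and 8.71% to 14.8% in mutants. The share of Gria1 overlapped, with 6.92% to 23.4% in controls and 15.2% to 24.4% in mutants. The summed signal itself was 27.4 to 41.9 normalized counts per kb in controls and 53.5 to 86.7 in mutants. Left atrial Gria3 already took 79.1% to 94.0% in controls and took 90.1% to 95.3% in mutants. Gria2 was under 1% of the sum in every library of both atria. These shares hold the values that chose the genes and are therefore given without a test.

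**Figure D2:**
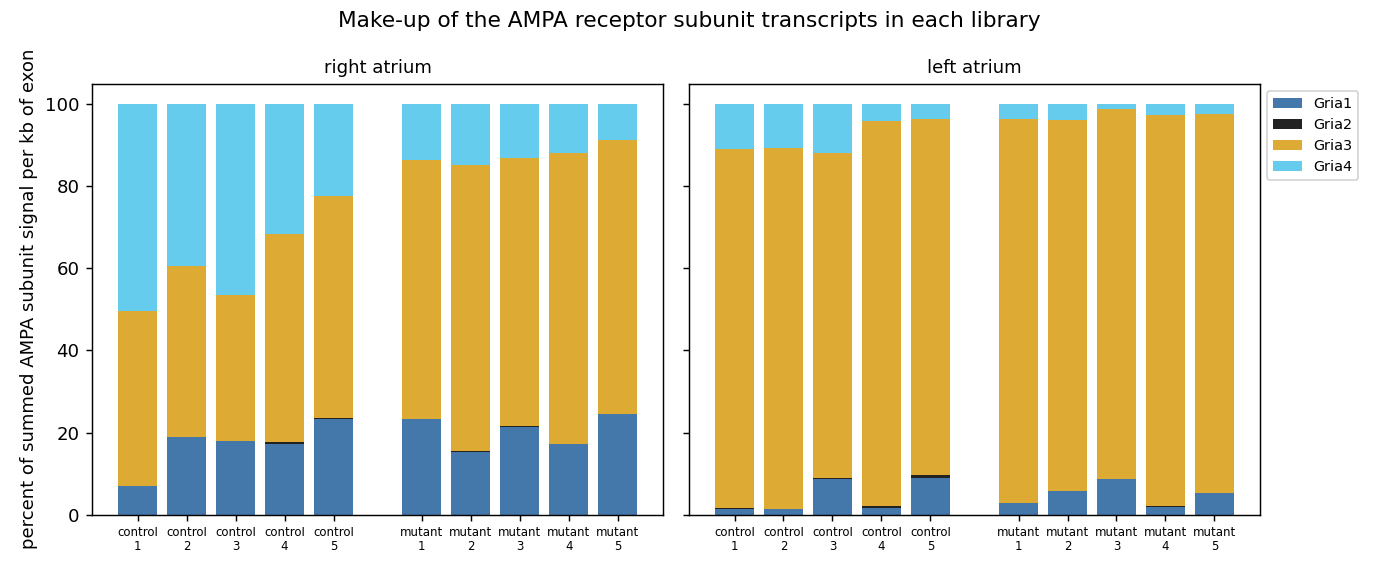
Percent of the summed AMPA subunit signal per kb of exon (y axis) taken by Gria1, Gria2, Gria3 and Gria4 in each library (x axis) of the right and left atrium. In the right atrium the Gria4 share is 22.4% to 50.4% in controls and 8.71% to 14.8% in mutants, Gria3 dominates all left atrial libraries, and Gria2 is barely visible.

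Grin2c encodes the GluN2C subunit of NMDA receptors, known from cerebellar granule cells and astrocytes (ENSMUSG00000020734, chr11:115249169-115267243, minus strand). Its control right atrial values were 394.38, 419.41, 389.00, 407.79 and 523.85 normalized counts in libraries 1 to 5. The mutant values were 672.76, 852.61, 724.95, 633.43 and 871.03. Control 5 was above the other controls but below every mutant. The means were 427 ± 55.5 and 751 ± 106, and the log2 fold change was 0.81 ± 0.11.

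Left atrial controls had 17.20, 33.04, 16.08, 30.34 and 29.41 normalized counts of Grin2c. Left atrial mutants had 127.99, 76.76, 75.67, 66.09 and 113.24. Every mutant library was above the highest control, and mutant 1 and mutant 5, the libraries with the highest GC trends, had the highest values. Transcripts of Grin2c are 61.6% GC. The means were 25.2 ± 7.95 and 92.0 ± 27.0, a log2 fold change of 1.84 ± 0.27. Without mutant 1 it was 1.71, and with the GC trend as a covariate it was 1.60. The part of the GC trend in the remaining difference was not tested.

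Per kb of exon, Grin2c was the most abundant of the 7 genes in right atria, with 84.8 ± 11.0 normalized counts per kb in controls, at the 49.4th percentile of tested genes, and 149 ± 21.1 in mutants, at the 65.4th. In mutants it did not stand beyond its spread above Neto2 (139 ± 22.3 per kb). Grin1, the subunit that NMDA receptors require, had 1 read over all 20 libraries, in a mutant right atrium. Grin1 was singled out after its value was seen.

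Neto2, the auxiliary subunit (ENSMUSG00000036902, chr8:85636588-85700924, minus strand), had the largest log2 fold change of the 7 genes in the right atrium and one close to that of Grin2c in the left. Control right atrial libraries 1 to 5 had 197.19, 127.29, 167.98, 180.18 and 130.04 normalized counts. Mutant right atrial libraries had 781.98, 957.93, 777.18, 1036.20 and 715.08. No mutant library came near the control range. The means were 161 ± 30.9 and 854 ± 136, and the log2 fold change was 2.41 ± 0.14. Over the fits without a library it ranged from 2.33 to 2.49. On the scale per kb, Neto2 stood at the 24.5th percentile of tested genes in controls and at the 63.4th in mutants.

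Left atrial controls had 304.42, 386.29, 478.55, 812.30 and 505.93 normalized counts of Neto2. Left atrial mutants had 1114.40, 1698.90, 2013.30, 2590.80 and 1353.40. Mutant 1 was the lowest mutant and still above control 4, the highest control. The means were 498 ± 193 and 1754 ± 579, a log2 fold change of 1.83 ± 0.26. Within genotypes, the left atrial Neto2 level moved with the share of mitochondrial rRNA (r = 0.88 over 10 deviations from the group means) and against the GC trend (r = -0.70). Control 4 and mutant 4, with 46.7% and 42.2% of reads from mitochondrial rRNA, had the highest Neto2 of their groups. The log2 fold change was 1.91 with the share of mitochondrial rRNA as a covariate, 2.23 with the GC trend and 1.98 without mutant 1. These covariates were added after the data were seen.

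**Figure D3:**
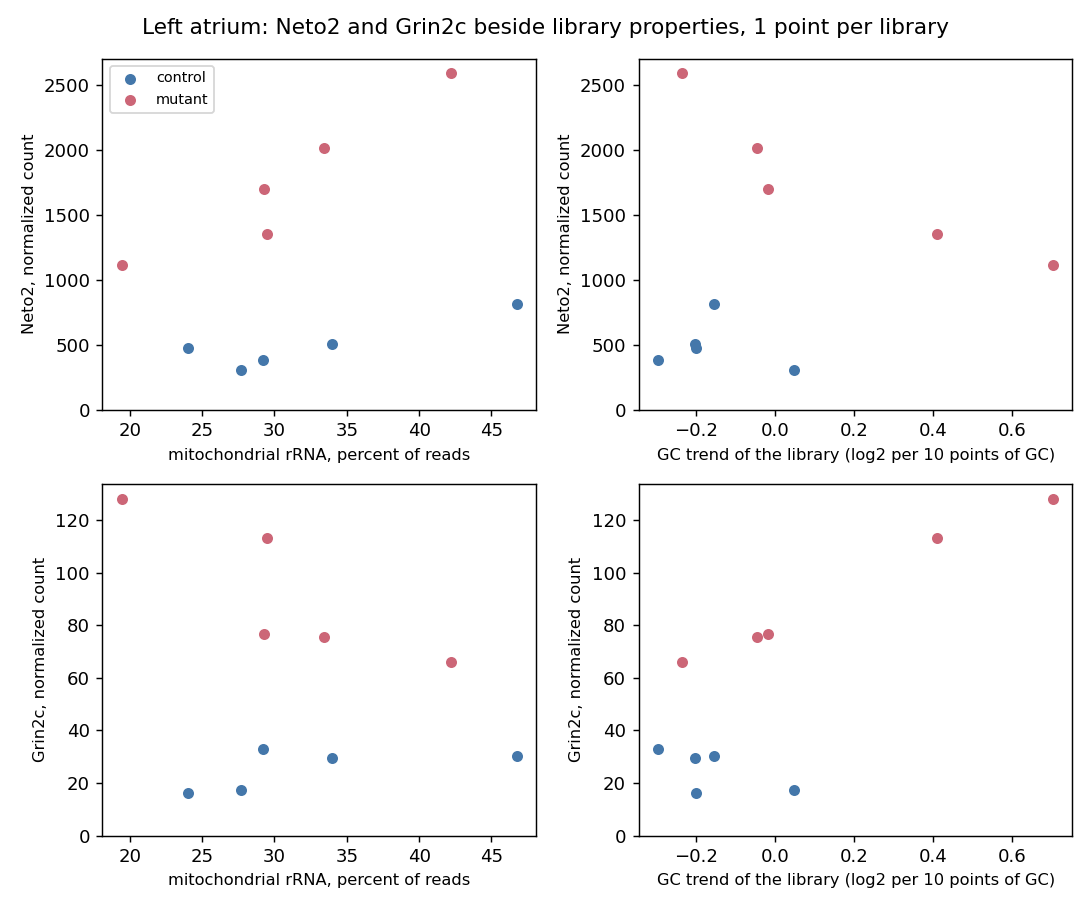
Left atrial normalized counts (y axes) of Neto2 (top) and Grin2c (bottom) in 5 control and 5 mutant libraries against the share of reads from mitochondrial rRNA (left) and the GC trend of the library (right). Neto2 tends to be higher in libraries with more mitochondrial rRNA within each genotype, but not in every library. Control 3, with 24.1% of reads from mitochondrial rRNA, has more Neto2 than control 1 (27.7%) and control 2 (29.2%). Mutant libraries 1 and 5 have GC trends of 0.70 and 0.41, and the genotypes do not overlap in either gene.

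Grik5 encodes the kainate receptor subunit GluK5 (ENSMUSG00000003378, chr7:25009849-25072346, minus strand), a partner of the channels that Neto2 binds. It had 142.89, 152.01, 138.93, 133.82 and 137.42 normalized counts in control right atria and 137.11, 129.96, 141.63, 138.05 and 137.34 in mutant ones. It was the steadiest of the 7 genes, with means of 141 ± 6.96 and 137 ± 4.24 and a log2 fold change of -0.04 that was not called. Left atrial Grik5 had 1.96 to 18.5 normalized counts in controls and 5.54 to 14.9 in mutants, and it was not tested. The ratio of Neto2 to the summed kainate subunits, per kb of exon, was 0.57 to 0.93 in control and 3.49 to 5.08 in mutant right atria. In left atria, where the kainate subunits together had 2.77 to 6.40 normalized counts per kb in any library, it was 9.84 to 28.8 and 32.3 to 100.3. The right atrial kainate sum was 33.9 ± 1.88 per kb in controls and 33.8 ± 2.28 in mutants. Grik5 made up most of it, with 27.3 and 26.5 per kb. The ratios therefore restate the Neto2 values, which helped to choose the genes, and are given without a test.

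**Figure D4:**
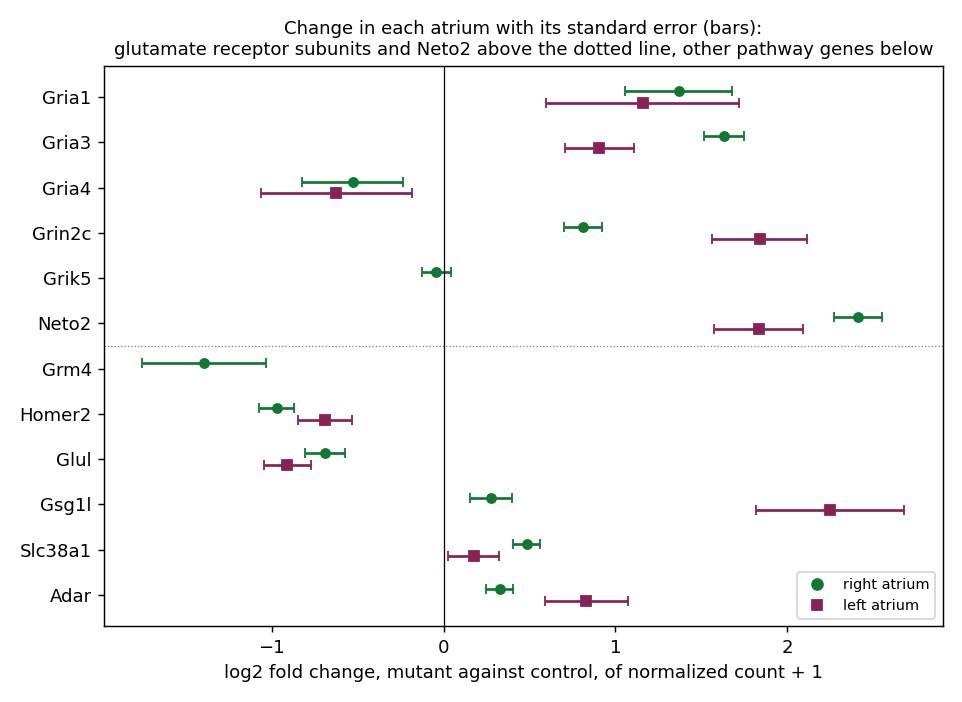
Log2 fold change of normalized count + 1 in mutants against controls (x axis) in the right atrium (circles) and left atrium (squares), with bars of 1 SE. The tested receptor subunits and Neto2 stand above the dotted line and other glutamate pathway genes below it. Neto2, Grin2c, Gria3 and Gria1 lie to the right of 0 in both atria, and Homer2 and Glul to the left.

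The change in the left atrium less that in the right was -0.73 ± 0.24 (SE) on the log2 scale for Gria3, 1.03 ± 0.29 for Grin2c and -0.58 ± 0.32 for Neto2. For Gria1 it was -0.21 ± 0.68 and for Gria4 -0.10 ± 0.54. None of the 5 genes tested in both atria was among the called ones in the fit over all 12537 genes, in which 8 (0.0638%) were called.

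The genes were also compared by their levels over the libraries. The Pearson correlation of log2 levels over the 10 libraries of an atrium was 0.94 in the right and 0.80 in the left atrium for Gria3 and Neto2, and 0.87 and 0.79 for Grin2c and Neto2. These libraries include both genotypes, so the correlations hold the genotype difference. Over deviations from the group means they were -0.43 and 0.23 for Gria3 and Neto2 and -0.52 and -0.18 for Grin2c and Neto2. For Gria3 and Grin2c they were 0.47 and -0.39. The signs differed between atria for both pairs that include Gria3.

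Among 11456 genes measured in both atria, the gene with the level profile most like Gria3 was D10Bwg1379e, with a mean Pearson correlation of 0.94 over the right and left tables (10 libraries each), followed by Deptor, an inhibitor of mTOR, Sema3a, Il1rapl2 and Laptm4b (0.90 to 0.91). Grin2c was closest to Lrp4, the agrin receptor of the neuromuscular junction (0.93), then to Drd2, the D2 dopamine receptor, Ncs1, a neuronal calcium sensor, Ctnnal1 and Tmem37. Neto2 was closest to Sema3a, a secreted axon guidance protein (0.98), then to Jam3, Serinc3, Tmx4 and Il1rapl2. Sema3a had log2 fold changes of 2.53 in the right and 2.41 in the left atrium. By deviations from the group means, which leave the genotype out, the closest gene was Omd for Gria3 (0.77), Nr2c2ap for Grin2c (0.83) and Pfn2 for Neto2 (0.87). The other 4 of each were Klf11, Vsnl1, D10Bwg1379e and Sox5 for Gria3, Sympk, Dexi, Ppp6r1 and Cerk for Grin2c, and Lipo2, Stam, Lnp and Acn9 for Neto2. The lists by level and by deviation shared D10Bwg1379e for Gria3 and no gene for Grin2c or Neto2. The deviations also hold library properties. With the share of mitochondrial rRNA they had r = 0.88 for left atrial Neto2 and r = 0.72 for right atrial Grin2c. The part of library properties in these lists was not tested.

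A list of 78 other genes of glutamate receptors, their auxiliary proteins, scaffolds, transport and editing was examined beside them. In the right atrium 48 were tested, and 2 passed the test as higher and 4 as lower, against 6.23% called over all genes. In the left atrium 36 were tested, and 1 passed as higher and 3 as lower, against 1.2%. The median log2 fold change was 0.04 in the right and 0.11 in the left atrium, near that of all genes. Homer2 and Glul were among the genes that fell in both atria.

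Homer2 encodes a scaffold that ties glutamate receptors to intracellular calcium stores. Control right atria 1 to 5 had 302.0, 337.0, 306.9, 350.9 and 288.7 normalized counts of Homer2. Mutant right atria had 129.0, 168.1, 168.2, 164.3 and 180.8. Every mutant was far below the lowest control. Homer2 had 317 ± 25.9 normalized counts in control and 162 ± 19.5 in mutant right atria, a log2 fold change of -0.97 ± 0.10 (adjusted p = 7.06e-05, limma). Its left atrial values were 318 ± 52.3 and 195 ± 20.05, a log2 fold change of -0.69 ± 0.16 (adjusted p = 0.0495, limma). Every mutant was below every control in both atria. The left atrial call was lost in 8 of 10 fits without a library, all but those without control 1 or mutant 4, with adjusted p up to 0.168 in limma. It was also lost with no filter, with quantile normalization and with the GC trend as a covariate (adjusted p = 0.0674, 0.0508 and 0.188, limma).

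Glul, glutamine synthetase, converts glutamate to glutamine. It had 3702 ± 425 normalized counts in control and 2309 ± 409 in mutant right atria, and 2124 ± 253 and 1132 ± 154 in left atria, without overlap in either. The log2 fold changes were -0.69 ± 0.12 (adjusted p = 0.00295, limma) and -0.91 ± 0.14 (adjusted p = 0.00358, limma), and neither call was lost on leaving out any library. Grm4, a metabotropic receptor coupled to Gi, was scarce and fell in the right atrium, from 17.8 ± 8.14 to 5.69 ± 1.58 normalized counts (log2 fold change -1.39 ± 0.36, adjusted p = 0.0376, limma). That call was lost in 8 of 10 fits without a library, all but those without control 2 or control 3, with adjusted p up to 0.0969 in limma, and with no filter (0.0636).

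Slc38a1, a neutral amino acid carrier that imports glutamine, rose in the right atrium from 1735 ± 97.2 to 2437 ± 278 normalized counts (log2 fold change 0.48 ± 0.08, adjusted p = 0.0021, limma). It had 1759 ± 287 and 1979 ± 247 in left atria and did not pass the test. Adar, an enzyme that edits adenosine to inosine in RNA, rose in the right atrium from 1094 ± 115 to 1369 ± 91.7 (log2 fold change 0.33 ± 0.08, adjusted p = 0.028, limma), and 5 of 10 fits without a library (control 4 or mutant 2, 3, 4 or 5) lost the call, as did a single model of both atria (adjusted p = 0.718, limma). Left atrial Adar had 116 ± 31.9 and 207 ± 63.5 and did not pass the test.

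Gsg1l, an auxiliary subunit of AMPA receptors, had 754.5, 598.9, 653.0, 875.6 and 909.4 normalized counts in control and 790.1, 1016.2, 793.1, 942.7 and 1014.6 in mutant right atria. These overlapped and did not pass the test (log2 fold change 0.27 ± 0.12, adjusted p = 0.221, limma). Left atrial Gsg1l had 8.6, 6.8, 1.9, 18.5 and 11.8 in controls and 57.3, 44.8, 28.9, 36.1 and 43.6 in mutants, without overlap. There it rose with a log2 fold change of 2.25 ± 0.43 (adjusted p = 0.0184, limma). The call was lost without control 2, mutant 1, mutant 2 or mutant 5, with adjusted p of 0.054 to 0.0586 in limma, and with the GC trend as a covariate (log2 fold change 1.99, adjusted p = 0.126, limma). The left change less the right change of Gsg1l was 1.97 ± 0.46 and did not pass the test over all genes (adjusted p = 0.237, limma).

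**Figure D5:**
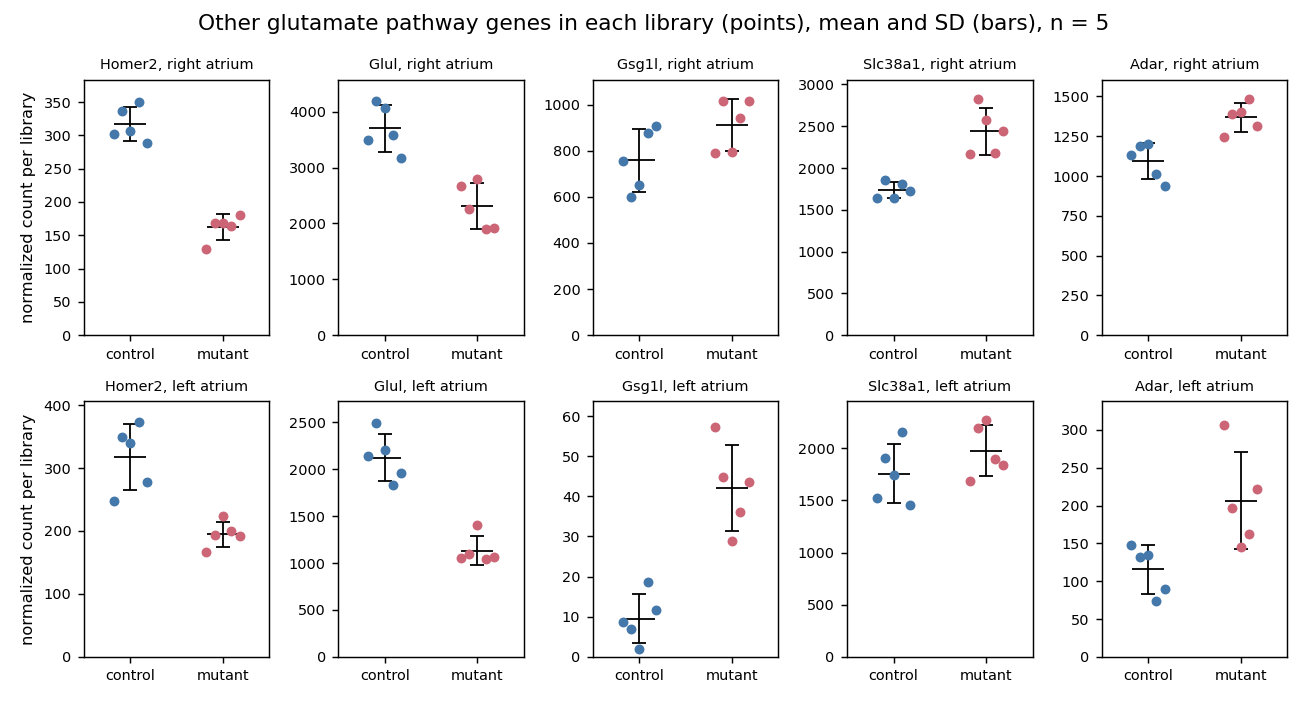
Normalized counts (y axes, from 0, scaled per panel) of Homer2, Glul, Gsg1l, Slc38a1 and Adar in 5 control and 5 mutant libraries of the right (top) and left (bottom) atrium. Points are libraries and bars the mean and SD. Homer2 and Glul lie lower in every mutant library than in every control library of both atria.

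No other receptor subunit passed the test. Of the remaining kainate subunits Grik2 had 35.8 ± 11.4 normalized counts in control and 42.2 ± 16.5 in mutant right atria, and Grik3 31.2 ± 6.32 and 30.9 ± 10.8. Of the remaining NMDA subunits Grin3a had 92.7 ± 35.8 and 76.6 ± 13.4, and Grin3b 49.3 ± 6.72 and 55.0 ± 8.71. The delta receptor subunit Grid1, a synaptic organizer, averaged 1.27 normalized counts over the right atrial libraries and was not tested. Of the 17 auxiliary genes other than Neto2, 5 were tested in the right and 2 in the left atrium. Of the 21 scaffold and traffic genes, 19 were tested in the right atrium and 15 in the left, and Homer2 was the single one called in each. Of 17 transport and metabolism genes, 14 and 13 were tested.

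Markers of other cell types were read beside these genes. Of 14 neuronal markers, 13 of which had values in the right atrium, 4 were tested in each atrium and 0 were called. Their summed normalized counts were 666 to 1113 in control and 673 to 817 in mutant right atria, and 61.5 to 110 and 49.9 to 78.1 in left atria. Of 8 Schwann cell and glial markers, 5 were tested in the right and 4 in the left atrium. Mbp and Cnp rose in the right atrium and Cnp in the left, with sums of 1510 to 2194 and 2418 to 3506 normalized counts in right atria and 641 to 831 and 803 to 1352 in left atria. No glial gene was at 0 in every library of an atrium. Of 6 sinoatrial node markers, 0 were called in the right atrium (sums of 694 to 1144 and 680 to 1020). Of 4 smooth muscle markers, Acta2 and Cnn1 were lower in mutant right atria. Mbp and Cnp thus moved with Gria1, Gria3, Grin2c and Neto2, and their part in those differences was not tested.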

How the data were processed

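Total RNA from whole atria (300 ng) was made into libraries with a kit that does not mark strand, and reads were aligned by the authors with STAR to mm10. The authors deposited 1 table per atrium of DESeq2-normalized counts, a signal scaled by size factors, not raw counts. No tool versions are given in the sources used here. The authors' own comparison tables, which hold fold changes and p-values, were not used. From the right atrial data 6275 rows without values and 1203 repeated rows of 40924 were removed. Missing symbols of the left atrial table were filled by Ensembl identifier for 7335 of 7682 genes.

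Each library's values were whole multiples of 1 step (100% of values within 0.01 of a whole number), so reads were recovered. The deposited step of 1 left atrial mutant library (0.996) is so near 1 that it cannot be told from unscaled counts. Genes with a mean of at least 10 were tested within each atrium by limma 3.58.1 (R 4.3.3) on log2(value + 1), with Benjamini-Hochberg adjustment. A fold change on this scale is understated for low genes. edgeR 4.0.16 and DESeq2 1.42.0 on the recovered reads were alternatives, as were other pseudocounts, filters, scalings, a replicate block and leaving out each library. The fits were tested on simulated data. Positions and exon lengths came from GENCODE M21 (GRCm38), and promoter windows from RefSeq. The genes and lists were chosen with earlier results of these data known. Named pathway genes are those called in either atrium and otherwise the 2 with the highest mean of a list. Grin1 was named in addition. Some listed genes that enter the counts are not reported here by name. For likeness, the 5 genes with the highest mean correlation were taken, leaving out predicted genes. No labels say that libraries came from separate animals, so p-values measure the spread between these libraries. The spread over libraries is the error given throughout. Other annotated genes shared at most 1.81% of the exon bases of any of the 7 genes. No pair of replicate libraries agreed within counting noise (the lowest spread was 2.52 times that noise).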

Additional observations from a re-analysis of the deposited data

Results flagged for a closer look

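In 56 groups of 5 libraries (14 genes in 4 groups), 3 had a highest library far from the other 4, where chance gives about 1 in 20 groups. Gria2 had 2.4 normalized counts (2 reads) in mutant left atrium 4 and 0 in the other 4 mutant left atria. Grin2c had 524 normalized counts in control right atrium 5, against 389 to 419 in the other controls. Glul had 1405 normalized counts in mutant left atrium 3, against 1038 to 1098 in the other mutants.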

How the results depend on the processing

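Left atrial counts depended most on the processing, and the cause was not tested. The 890 genes called in the right atrium became 267 when a single model held the 4 groups, and 600 to 1091 without a library. The 158 called in the left atrium became 431 with DESeq2, 1235 in the single model, 289 with the share of mitochondrial rRNA and 95 with the GC trend as a covariate (both added after the data were seen), and 71 (without control 2) to 370 (without mutant 4) without a library. Of the pathway genes, 6 called in the right atrium became 4 to 7 without a library. The 4 called in the left atrium became 9 with DESeq2, 10 in the single model, 1 with the GC trend and 1 to 5 without a library, and 8 with the replicate block. The 8 genes called for the left less the right change became 0 to 11 without a library. With the replicate number as a block, 693 genes were called in the left atrium. Same-numbered libraries did not deviate together in every pair (correlations of -0.03 to 0.27 in the right and 0.03 to 0.32 in the left atrium), with 2 of 5 pairs over 0.1 in the right and 4 of 5 in the left. In the left atrium 3 of 5 numbers correlated best with themselves, and in the right 2 of 5. This is a hint of shared deviation in the left atrium, but the labels do not say what a number marks, so the libraries were not treated as paired. No direction of a named gene was reversed. Adar in the left atrium passed the test with DESeq2, in the single model, with the block and with the share of mitochondrial rRNA. Gria1 in the right atrium was not called in the single model, and Gria3 in the left not with the GC trend, while Gria4 in the right was called lower with the GC trend and without control 5.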
